A study of Mus musculus with 8 samples.

Results

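The mitosis genes described here are 40 transcripts that act between entry into mitosis and the separation of the daughter cells. They were chosen by name, as the rows of the deposited count table whose symbol was on a fixed list, and all 40 were found among its 54188 genes. All 40 also passed the filter on low counts, which left 17650 genes, and the lowest count of any member in any library was 90. RNA was sequenced from myeloid cells sorted on CD11b and Gr-1 out of sanroque mice, a lupus-prone C57BL/6 strain carrying the san allele of Roquin, at an age of about 20 weeks and labelled female. The 4 groups were spleen Gr-1hi cells (SP Gr-1hi, libraries 5 and 6), spleen Gr-1lo cells (SP Gr-1lo, libraries 7 and 8), bone marrow Gr-1hi cells (BM Gr-1hi, libraries 9 and 10) and bone marrow Gr-1lo cells (BM Gr-1lo, libraries 11 and 12). The labels name the Gr-1hi cells G-MDSCs and the Gr-1lo cells M-MDSCs, granulocytic and monocytic myeloid-derived suppressor cells. All 4 groups came from mice of this strain, so that no comparison with wild-type mice was made. The marrow cells are the reference for the spleen cells of the same phenotype, and the comparison asks how far myeloid cells that gather in the spleen differ from marrow cells of the same phenotype.

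Transcripts of mitosis genes accumulate in G2 and M phase of dividing cells and are nearly absent from cells that have left the cycle. In resting cells the DREAM complex, built on the MuvB core, holds their promoters silent. In cycling cells the same core works with B-MYB and FOXM1 to activate them. MuvB binds the cell cycle genes homology region, or CHR, and NF-Y binds the CCAAT boxes that often lie upstream of it. In the marrow, granulocyte and monocyte precursors divide, whereas mature neutrophils and monocytes are largely postmitotic.

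Promoter windows of 300 bases, from 250 before to 50 after the annotated start, were taken from RefSeq (GRCm38.p6) and matched 34 of the 40 members through 36 windows. Tpx2, Smc4, Aurkb, Cdc25c, Kif20a and Ccna2 had no window. A CHR, searched as TTTGAA or TTCGAA on both strands, was present in 80.56% of the members' windows and in 19.23% of all 32851 windows. A CCAAT box, searched as CCAAT or its reverse complement ATTGG, was present in 75% of the members' windows and in 37.41% of all windows. Both motifs stood in 69.44% of the members' windows and 7.525% of all windows. For 44 genes of DNA replication and the G1/S transition, the same figures over 40 windows were 15% for the CHR, 57.5% for CCAAT and 12.5% for both. The CHR letters were not in the windows of Birc5, Ccnb1, Cenpe, Mad2l1, Melk, Nuf2 and Nusap1. These are matches of letters and not measured binding. The start used equalled the end of the annotated gene in 18 of the 36 windows, so that positions depend on the start taken. The 6 stretches below, each from 70 bases before to 30 after the start, are shown because they place the motifs in Kif23, the member whose pattern stood apart, and in 5 members that moved with the rest. The 5 were picked among members whose stretch holds both motifs. The same stretch of Plk1 and Aurka holds CCAAT letters but no CHR, because their TTTGAA begins just past its end, at positions 31 and 33. CHR and CCAAT letters are in capitals, and each stretch is written on the strand of its gene.
Ccnb2, chr9:70421525-70421624, minus strand: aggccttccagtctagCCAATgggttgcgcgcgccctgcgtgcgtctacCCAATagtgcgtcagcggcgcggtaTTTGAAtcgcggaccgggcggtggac
Cdk1, chr10:69352883-69352982, minus strand: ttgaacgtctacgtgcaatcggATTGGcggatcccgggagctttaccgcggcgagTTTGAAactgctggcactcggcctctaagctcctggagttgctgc
Cdc20, chr4:118437314-118437413, minus strand: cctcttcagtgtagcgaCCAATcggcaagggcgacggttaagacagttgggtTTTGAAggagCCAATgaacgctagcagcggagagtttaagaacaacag
Ube2c, chr2:164769859-164769958, plus strand: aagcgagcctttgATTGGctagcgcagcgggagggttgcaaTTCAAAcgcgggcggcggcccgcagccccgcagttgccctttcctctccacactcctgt
Kif11, chr19:37376312-37376411, plus strand: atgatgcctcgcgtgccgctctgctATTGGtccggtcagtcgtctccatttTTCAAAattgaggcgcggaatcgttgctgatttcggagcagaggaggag
Kif23, chr9:61946770-61946869, minus strand: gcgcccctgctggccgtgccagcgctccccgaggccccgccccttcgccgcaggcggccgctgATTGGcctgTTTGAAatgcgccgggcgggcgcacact

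Total counts ranged from 33453580 to 68316154 per library, and the members took between 0.0811% and 0.773% of them. Values are given as CPM, read counts scaled to library size with TMM factors, unless stated otherwise. Ly6g, the neutrophil antigen that the Gr-1 antibody binds, lay between 330 and 801 CPM in the 4 Gr-1hi libraries. In the 4 Gr-1lo libraries it lay between 3.07 and 8.23 CPM. Csf1r, the receptor of the monocyte growth factor CSF1, lay between 133 and 375 CPM in Gr-1hi cells and between 436 and 754 CPM in Gr-1lo cells. By flow cytometry the study reported CD115, the protein of Csf1r, as high on spleen Gr-1hi and low on spleen Gr-1lo cells. The RNA went the other way. These genes do not show how pure the sorts were, and transcripts of other cell types are given below. The labels did not match the X and Y transcripts. The X-inactivation transcript Xist had 12032 counts in SP Gr-1hi library 5, 9898 in SP Gr-1lo library 7 and at most 5 in every other library, whereas the Y-linked gene Ddx3y was at 0 in library 5 alone and between 33.7 and 82.6 CPM in the other 7. Results of the comparisons are therefore also given without libraries 5 and 7 where these move them. The libraries with high Xist, 5 and 7, were both spleen libraries, so that sex and tissue cannot be told fully apart between spleen and marrow. Which libraries share a mouse is not given by the labels. In sorted bulk RNA, fewer dividing cells and less of each transcript per dividing cell cannot be told apart.

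The summed level of the 40 members separated the Gr-1lo libraries from the Gr-1hi libraries in both tissues. It was 941 and 1256 CPM in SP Gr-1hi libraries 5 and 6, and 4476 and 4473 CPM in SP Gr-1lo libraries 7 and 8. In the marrow it was 1126 and 1599 CPM in BM Gr-1hi libraries 9 and 10, and 5455 and 6154 CPM in BM Gr-1lo libraries 11 and 12. The 4 groups did not overlap within either comparison of subsets, and the SP Gr-1lo sums lay below both BM Gr-1lo sums. The SP Gr-1hi and BM Gr-1hi sums overlapped.

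**Figure D1:**
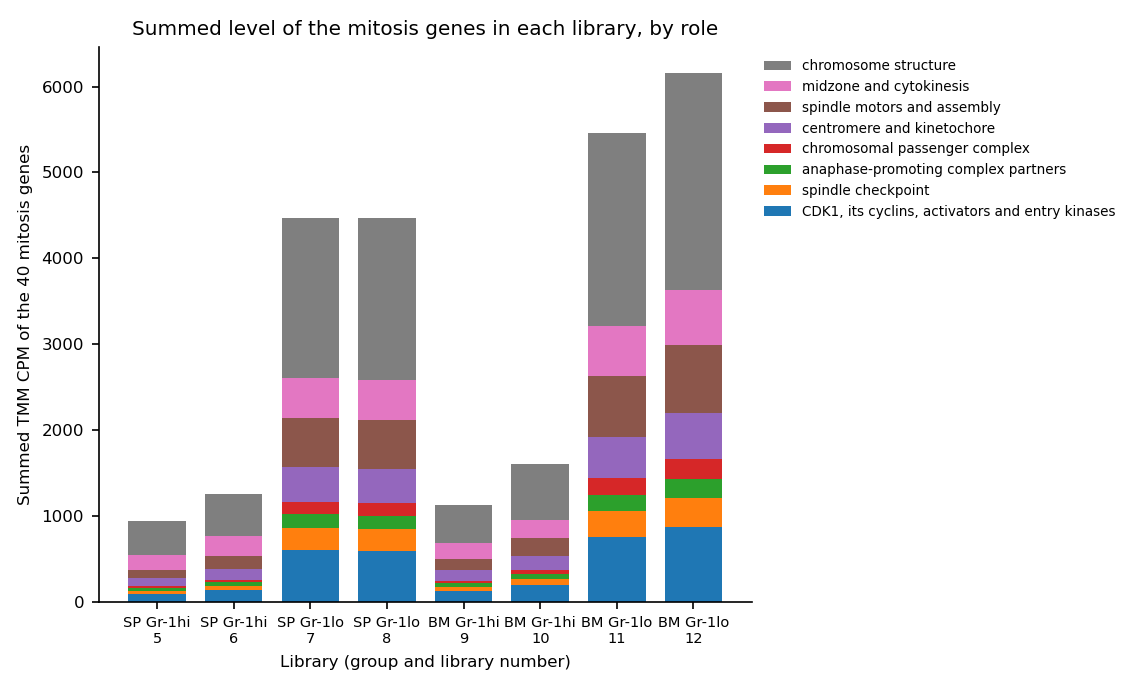
Stacked bars give the summed TMM CPM of the 40 mitosis genes in each of the 8 libraries (y axis, CPM from 0), divided by the 8 roles of the genes. The 4 Gr-1lo libraries stand between 4473 and 6154 CPM and the 4 Gr-1hi libraries between 941 and 1599 CPM.

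Per length, the most abundant members in BM Gr-1lo cells were Mki67, the proliferation antigen that coats mitotic chromosomes, at a mean of 281 TPM, Top2a, the topoisomerase that untangles sister chromatids, at 234 TPM, and Ccnb2, a B-type cyclin of CDK1, at 233 TPM. The same 3 stood at 33.7, 19.6 and 26.2 TPM in SP Gr-1hi cells. The least abundant in BM Gr-1lo cells was Cdc25c, a phosphatase that activates CDK1, at 14.6 TPM. In SP Gr-1hi cells the order differed at the top, where Smc4, a condensin subunit, came before Mki67 at 41.4 TPM and Kif23 directly after it at 31.0 TPM.

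Gr-1hi cells had lower levels of nearly all mitosis genes than Gr-1lo cells of the same tissue. In the marrow, 39 of the 40 members were called lower in BM Gr-1hi than in BM Gr-1lo cells, by the quasi-likelihood test of edgeR at a Benjamini-Hochberg adjusted p of at most 0.05 and a fold change of at least 2, where 33.1% of the 17650 genes tested were called lower. In the spleen, 38 members were called lower in SP Gr-1hi than in SP Gr-1lo cells, where 27.4% of all genes were. No member was called higher in either comparison, while 24.2% of all genes were in the marrow and 22.3% in the spleen, and none was higher at an unadjusted p of at most 0.05 or when called by DESeq2 or limma. The median log2 fold change of the members was -2.17 in the marrow and -2.19 in the spleen, against -0.17 and -0.09 over all genes tested. Of all genes called, 42.3% were higher in Gr-1hi cells in the marrow and 44.8% in the spleen, and these shares were 21.8% and 24.9% under total-count scaling, by which the median of all genes moved to -0.99 and -0.69. All 40 members lay lower in both BM Gr-1hi libraries than in both BM Gr-1lo libraries, as did 48.2% of all genes, and 39 did in the spleen, as did 45.6% of all genes. At the stricter criterion that the study used between subsets, an adjusted p below 0.01 and a fold change above 8, 1 member remained in the marrow, Aurkb, and none in the spleen, against 10.1% and 2.93% of all genes.

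**Figure D2:**
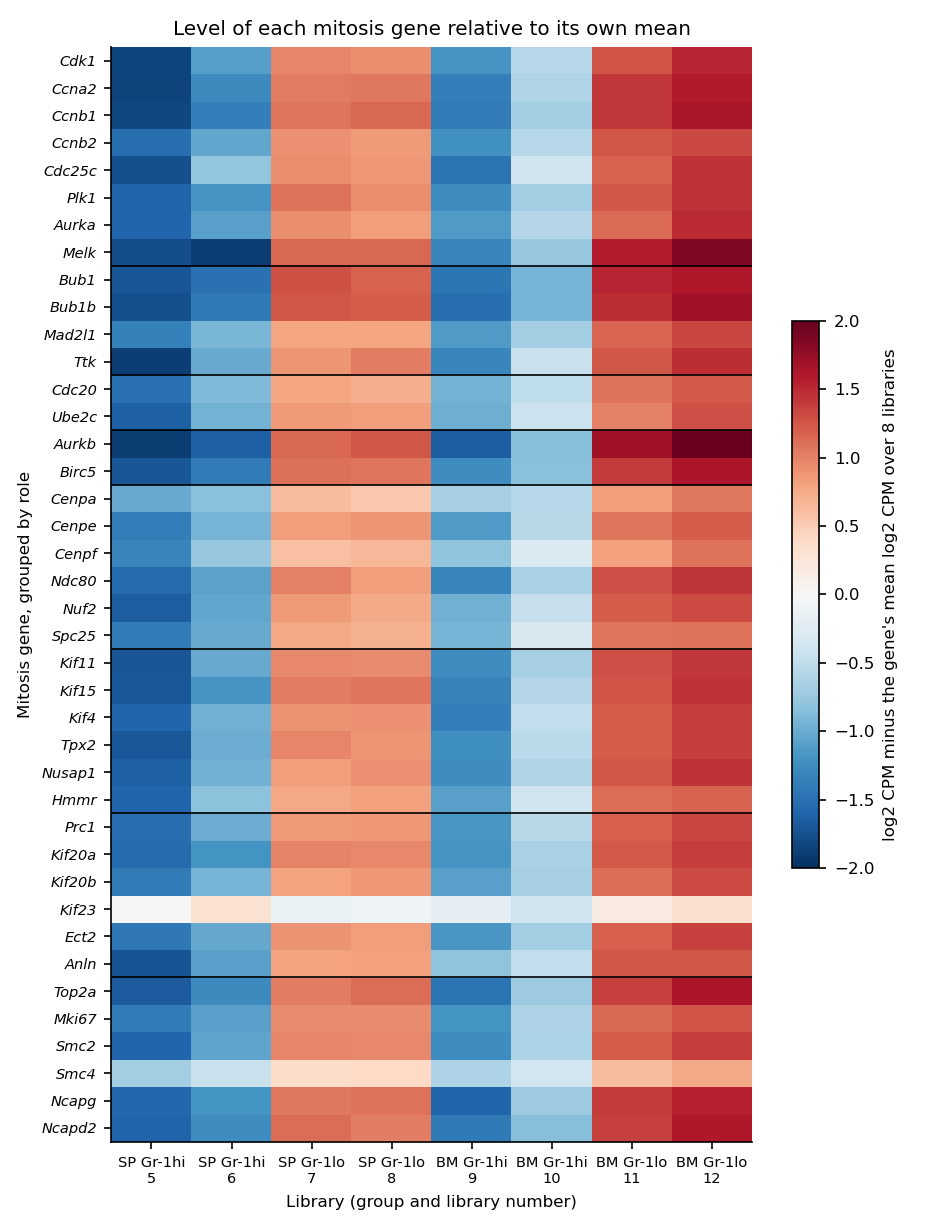
Colours give log2 CPM of each mitosis gene (rows, grouped by role) in each library (columns) minus that gene's mean over the 8 libraries, from -2 in dark blue to 2 in dark red. The 4 Gr-1lo columns are red and the 4 Gr-1hi columns blue for most rows, whereas the rows of Kif23 and Smc4 are pale.

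Among CDK1, its cyclins, activators and entry kinases, all 8 members were called lower in Gr-1hi cells of both tissues, with log2 fold changes from -2.73 to -2.14 in the marrow and from -2.98 to -2.09 in the spleen. Ccna2 (chr3:36564865-36572150), cyclin A, which partners CDK2 and then CDK1, had 22 and 32.9 CPM in SP Gr-1hi libraries, 162 and 164 CPM in SP Gr-1lo, 30.7 and 51.9 CPM in BM Gr-1hi and 210 and 239 CPM in BM Gr-1lo libraries. Melk, a mitotic kinase, had 3.80 and 3.54 CPM in SP Gr-1hi, 28.9 and 28.8 CPM in SP Gr-1lo, 5.23 and 7.68 CPM in BM Gr-1hi and 38.6 and 46.7 CPM in BM Gr-1lo libraries. For both genes the Gr-1lo libraries lay above every Gr-1hi library, by log2 changes of -2.44 ± 0.27 (SE) and -2.73 ± 0.18 in the marrow. Mean CPM of Melk was 6.60-fold higher in Gr-1lo than in Gr-1hi cells of the marrow and 7.87-fold higher in the spleen. Cdk1, Ccnb1, Ccnb2, Plk1, Aurka and Cdc25c moved alike, and the log2 fold change of Cdk1, the kinase that drives mitotic entry, was -2.24 in the marrow and -2.38 in the spleen.

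The spindle checkpoint holds back anaphase until every kinetochore is attached, and all 4 of its members, Bub1, Bub1b, Mad2l1 and Ttk, were called lower in Gr-1hi cells of both tissues. Bub1b (chr2:118598211-118641591), which encodes BUBR1, had 15.5 and 19.7 CPM in SP Gr-1hi, 124 and 121 CPM in SP Gr-1lo, 18.4 and 27.6 CPM in BM Gr-1hi and 146 and 168 CPM in BM Gr-1lo libraries. Its log2 fold change was -2.77 ± 0.20 in the marrow and -2.80 ± 0.20 in the spleen. Mad2l1, which encodes MAD2, had 11.2 and 15.2 CPM in SP Gr-1hi, 49.0 and 49.2 CPM in SP Gr-1lo, 12.97 and 17.8 CPM in BM Gr-1hi and 63.6 and 71.9 CPM in BM Gr-1lo libraries. Its changes, -2.14 and -1.90, were the smallest of the 4 in the marrow and in the spleen. Cdc20 and Ube2c, the activator and the ubiquitin-conjugating enzyme of the anaphase-promoting complex, were also called lower in both tissues. Ube2c (chr2:164769898-164778822) had 15.9 and 25.4 CPM in SP Gr-1hi, 88.8 and 87.9 CPM in SP Gr-1lo, 25.0 and 36.3 CPM in BM Gr-1hi and 99.1 and 120 CPM in BM Gr-1lo libraries.

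The chromosomal passenger complex corrects faulty attachments and then moves to the midzone, and it held the member with the largest change between the marrow subsets. Aurkb (chr11:69045647-69051664), its kinase, had 9.16 and 11.0 CPM in SP Gr-1hi, 75.6 and 80.8 CPM in SP Gr-1lo, 10.8 and 18.8 CPM in BM Gr-1hi and 109 and 134 CPM in BM Gr-1lo libraries. Its log2 fold change was -3.04 ± 0.25 in the marrow and -2.95 ± 0.25 in the spleen. Birc5, or survivin, which targets the complex, changed by -2.54 ± 0.16 and -2.64 ± 0.16. All 6 centromere and kinetochore members were called lower in both tissues, with smaller changes for Cenpf, a kinetochore and nuclear matrix protein (-1.49 and -1.64), and Cenpa. Cenpa (chr5:30666777-30674830), the histone H3 variant of centromeres, had 35.3 and 39.7 CPM in SP Gr-1hi, 110 and 103 CPM in SP Gr-1lo, 44.6 and 47.9 CPM in BM Gr-1hi and 127 and 147 CPM in BM Gr-1lo libraries. Cenpe, a kinetochore motor, had 21.3 and 29.4 CPM in SP Gr-1hi, 99.8 and 103 CPM in SP Gr-1lo, 25.6 and 37.9 CPM in BM Gr-1hi and 117 and 130 CPM in BM Gr-1lo libraries. For Aurkb, Cenpa and Cenpe alike, the BM Gr-1lo libraries were the highest and the SP Gr-1hi library 5 the lowest.

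The 6 spindle motors and assembly factors were called lower in Gr-1hi cells of both tissues, with log2 fold changes from -2.28 to -1.85 in the marrow and from -2.46 to -1.95 in the spleen. Kif11 (chr19:37376403-37421859), the kinesin that pushes the spindle poles apart, had 28.2 and 46.0 CPM in SP Gr-1hi, 180 and 177 CPM in SP Gr-1lo, 38.8 and 58.3 CPM in BM Gr-1hi and 225 and 247 CPM in BM Gr-1lo libraries. Its promoter stretch above holds a CCAAT box on the reverse strand and a CHR downstream of it, the same arrangement as in Ube2c. In the midzone and cytokinesis group 5 of 6 members were called lower in both tissues. Anln, or anillin, a scaffold of the contractile ring, had 12.7 and 19.9 CPM in SP Gr-1hi, 73.9 and 74.4 CPM in SP Gr-1lo, 24 and 29.97 CPM in BM Gr-1hi and 99.2 and 99.3 CPM in BM Gr-1lo libraries. The sixth member was Kif23.

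Chromosome structure genes made up the largest share of the summed level. Mki67 (chr7:135689784-135716361) had 152 and 188 CPM in SP Gr-1hi, 764 and 763 CPM in SP Gr-1lo, 174 and 260 CPM in BM Gr-1hi and 886 and 953 CPM in BM Gr-1lo libraries. It alone held 15.5% of the members' sum in SP Gr-1hi cells and 15.9% in BM Gr-1lo cells. Top2a changed by -2.55 ± 0.24 in the marrow and -2.51 ± 0.24 in the spleen, and the condensin I subunits Ncapd2 and Ncapg by -2.60 and -2.58 in the marrow. Smc4, which is shared by both condensin complexes, had 98.6 and 117 CPM in SP Gr-1hi, 207 and 211 CPM in SP Gr-1lo, 104 and 123 CPM in BM Gr-1hi and 248 and 270 CPM in BM Gr-1lo libraries. Its log2 fold change was -1.19 ± 0.12 in the marrow. In the spleen it was -0.96 ± 0.12, with an adjusted p of 9.52e-05 in edgeR, and it missed the 2-fold criterion there. Smc2, with which Smc4 pairs, changed by -2.21 in the marrow and -2.27 in the spleen. Several members overlap another protein-coding gene on the opposite strand (Ccna2 and Exosc9, Cdc20 and Elovl1, Ube2c and Tnnc2, Kif4 and Pdzd11, Nusap1 and Oip5, Prc1 and Rccd1, Kif20a and Cdc23, Ncapg and Lcorl, Cdc25c and Gm3550). The library kit was stranded and the deposited table is labelled stranded, but the strand setting used in counting is not given further in the sources used here, and the values of these members are uncertain to that extent.

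**Figure D3:**
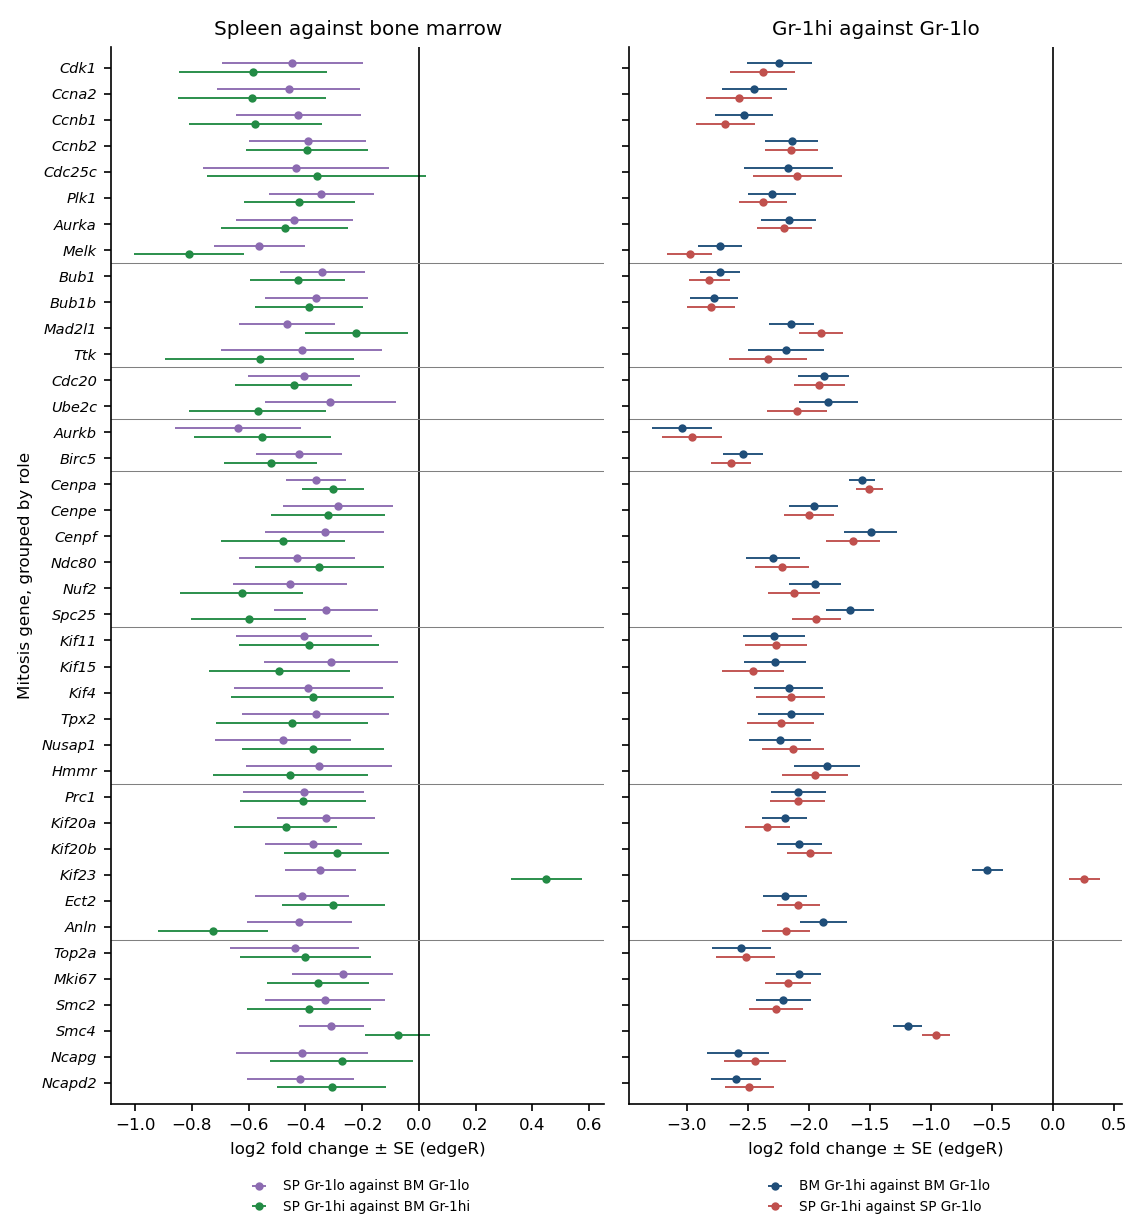
Points give the log2 fold change of each mitosis gene and bars its SE, derived from the F statistic of edgeR's test (x axis). Spleen against marrow is on the left and Gr-1hi against Gr-1lo on the right, with genes in rows grouped by role. On the right most genes lie between -3 and -1.5 and Kif23 near 0, and on the left most lie between -0.8 and -0.2 with Kif23 at 0.45 in Gr-1hi cells.

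Kif23, the kinesin of the centralspindlin complex that bundles midzone microtubules and starts cytokinesis, did not follow the other members. The gene lies at chr9:61915905-61946774 on the minus strand, with no overlapping gene annotated. It had 109 and 136 CPM in SP Gr-1hi, 100 and 104 CPM in SP Gr-1lo, 95.9 and 83.6 CPM in BM Gr-1hi and 123 and 137 CPM in BM Gr-1lo libraries. Spleen Gr-1hi cells thus held about as much Kif23 as BM Gr-1lo cells, and the SP Gr-1hi libraries lay above both SP Gr-1lo libraries. Kif23 was lower in BM Gr-1hi than in BM Gr-1lo cells by -0.54 ± 0.12 on the log2 scale (adjusted p = 0.00397, edgeR), short of a 2-fold change, and by -0.36 with an adjusted p of 0.0621 without BM Gr-1hi library 10. In the spleen its change was 0.26 ± 0.12 with an adjusted p of 0.0909, and the direction depended on scaling, with -0.35 and an adjusted p of 0.0206 under total-count scaling against 0.39 and 0.0178 under RLE scaling. The test of the difference between the 2 tissues gave 0.80 ± 0.18 on the log2 scale with an adjusted p of 0.0208, and it was 0.94 with an adjusted p of 0.0283 without libraries 5 and 7. This call was lost when any of 4 libraries was left out, with 0.58 (adjusted p = 0.0797) without BM Gr-1hi library 10, 0.77 (0.0768) and 0.82 (0.0687) without SP Gr-1lo library 7 or 8, and 0.71 (0.0828) without BM Gr-1lo library 12. Without SP Gr-1hi library 6 it was 0.53 with an adjusted p of 0.0352. At that threshold, without a fold criterion, 10.3% of all genes had an interaction in this direction, and Kif23 was the 1 member of 40 with any. Kif23 made up 11.6% and 10.8% of the members' sum in SP Gr-1hi libraries, 8.51% and 5.23% in BM Gr-1hi and between 2.23% and 2.33% in the 4 Gr-1lo libraries. Without Kif23 the sums were 832 and 1120 CPM in SP Gr-1hi, and 1030 and 1515 CPM in BM Gr-1hi libraries. Its promoter stretch above holds an ATTGG and a TTTGAA close together at the start taken for its window.

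**Figure D4:**
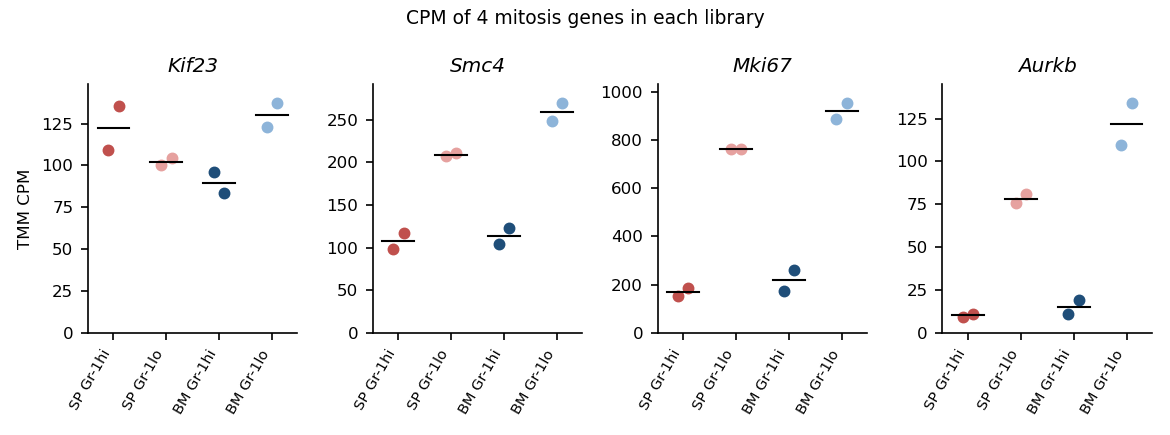
Points give TMM CPM (y axes from 0) of Kif23, Smc4, Mki67 and Aurkb in each of the 8 libraries by group, and lines the mean of 2 libraries. Kif23 stays between 83.6 and 137 CPM in all groups, whereas Mki67 and Aurkb are several-fold higher in the Gr-1lo libraries and Smc4 lies between these patterns.

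Spleen and marrow were compared next within each phenotype. In Gr-1lo cells the members were lower in the spleen by a similar amount each, from -0.64 for Aurkb to -0.27 for Mki67, with a median of -0.40 against -0.01 over all genes. No member passed the test. Over the 40 members the adjusted p from edgeR lay between 0.0938 and 0.513, and 3.84% of all genes were called higher and 0.215% lower in SP Gr-1lo cells. At an unadjusted p of at most 0.05, 8 members were lower (Melk, Mad2l1, Aurkb, Birc5, Cenpa, Kif23, Ect2 and Smc4), where 8.32% of all genes were, and neither DESeq2 nor limma called any. In all 40 members both SP Gr-1lo libraries lay below both BM Gr-1lo libraries, which held for 32.5% of all genes. Since libraries of 1 group vary together across these genes, the 40 are not 40 separate observations. The change of Aurkb was -0.64 ± 0.22 and that of Melk -0.56 ± 0.16, and the smallest were -0.27 ± 0.18 for Mki67 and -0.28 ± 0.19 for Cenpe. By role the medians ran from -0.53 for the chromosomal passenger complex to -0.35 for the centromere and kinetochore group.

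Other cell types' transcripts differed between the Gr-1lo groups as well. The summed level of 10 B cell genes was 67.6 and 85.1 CPM in SP Gr-1lo and 8.03 and 9.92 CPM in BM Gr-1lo libraries, with 9 of the 10 called higher in the spleen and none at 0 in both libraries of a group. The 8 primary granule genes of early neutrophils, led by Mpo, summed to 2324 and 1337 CPM in SP Gr-1lo and 3491 and 3437 CPM in BM Gr-1lo libraries, with 1 called lower in the spleen. The 8 monocyte genes summed to 6657 and 6546 CPM in SP Gr-1lo and 9909 and 9016 CPM in BM Gr-1lo libraries, with none called. Later neutrophil genes went the other way. The 8 secondary granule genes summed to 11112 and 9804 CPM in SP Gr-1lo and 6423 and 5513 CPM in BM Gr-1lo libraries, with 3 called higher. The 8 mature neutrophil genes summed to 2914 and 2532 CPM against 1425 and 1552 CPM, with none called. All 10 T cell genes and 7 of 9 erythroid genes tested were called higher in the spleen. The part of these in the lower member levels was not tested.

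In Gr-1hi cells no member was called between spleen and marrow at the 2-fold criterion, whereas 14% of all genes were called higher and 1.48% lower in SP Gr-1hi cells. The higher genes made up 90.4% of these calls, and 76.4% on quantile-normalized TPM. DESeq2 and limma called none either, and at an unadjusted p of at most 0.05, 10 members were lower and 1 higher, against 19.9% and 25.5% of all genes. The median log2 fold change was -0.41, with 39 of 40 members below 0, against a median of 0.03 over all genes. At an adjusted p of at most 0.05 without a fold criterion, 3 members were lower, where 13.9% of all genes were, and 1 was higher, where 20.1% were. The 3 were Melk (-0.81 ± 0.19, adjusted p = 0.0139), Anln (-0.73 ± 0.19, adjusted p = 0.0218) and Birc5 (-0.52 ± 0.16, adjusted p = 0.0382) in edgeR, and the 1 higher was Kif23 (0.45 ± 0.13, adjusted p = 0.0249). The smallest change was that of Smc4, -0.07 ± 0.12 with an adjusted p of 0.648, and its sign was positive under total-count and upper-quartile scaling. The libraries did not overlap for 8 members that were lower in the spleen, against 31.9% of all genes.

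The 2 libraries of each Gr-1hi group differed from each other across the members. All members but Melk were higher in library 6 than in library 5, with a median ratio of 1.38, and all but Kif23 were higher in library 10 than in library 9, with a median ratio of 1.496. In Gr-1lo cells the median ratio was 0.994 between libraries 8 and 7 and 1.13 between libraries 12 and 11. The members' median change between SP Gr-1hi and BM Gr-1hi was -0.18 without libraries 5 and 7. Leaving out SP Gr-1hi library 5 or 6 gave -0.27 or -0.77, and leaving out BM Gr-1hi library 9 or 10 gave -0.77 or -0.17. With library 6 or library 9 left out, some members were called lower, in fits that left 1 library in a group. The share of lower genes among all calls rose in the same fits. Without libraries 5 and 7 the adjusted p was 0.0801 for Melk, 0.097 for Anln, 0.267 for Birc5 and 0.0168 for Kif23. With single libraries left out, Melk kept an adjusted p of at most 0.0362. Anln had 0.0645 without library 10, and Birc5 had 0.0947, 0.0612, 0.0608 and 0.0973 without library 5, 7, 8 or 10. The change of Kif23 was 0.20 (adjusted p = 0.207) without library 6, 0.48 (0.0542) without library 9 and 0.25 (0.233) without library 10. B cell genes summed to 545 and 368 CPM in SP Gr-1hi and 20.2 and 16.6 CPM in BM Gr-1hi libraries, with all 10 called higher in the spleen, and erythroid genes to 232 and 749 CPM against 48.5 and 60.1 CPM, with 7 of 9 tested called higher and Klf1 at 0 in both BM Gr-1hi libraries. T cell genes summed to 123 and 75.8 CPM against 9.64 and 7.02 CPM, with 9 of 10 called higher. Plasma cell genes summed to 392 and 288 CPM against 102 and 101 CPM, with all 7 tested called higher. Germinal centre B cell genes, led by Bcl6, summed to 403 and 358 CPM against 388 and 332 CPM, with 5 of 8 called higher. Progenitor genes, led by Kit, summed to 77.2 and 36.6 CPM against 49.0 and 48.3 CPM, with 2 of 8 called higher and 3 lower. The part of these transcripts in the member levels of SP Gr-1hi cells was not tested.

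The difference of subsets was then compared between the tissues. The interaction of tissue and subset had a median of -0.04 over the members, from -0.30 for Anln to 0.80 for Kif23. This median turned with the libraries used, to -0.38 without SP Gr-1hi library 6, -0.40 without BM Gr-1hi library 9, 0.17 without BM Gr-1hi library 10 and 0.22 without libraries 5 and 7. No member was called at the 2-fold criterion by edgeR, DESeq2 or limma, against 7.74% of all genes in the positive and 2% in the negative direction. The positive share of all interactions called was 79.5%, and it was 90.1% under total-count scaling and 69.3% on quantile-normalized TPM. Kif23 was the 1 member with an unadjusted p of at most 0.05, against 18.3% of all genes in that direction. The subset comparisons share no libraries between tissues, but the interaction rests on 2 libraries a group, and the SE of Aurkb, 0.33 on the log2 scale, leaves room for differences between tissues of that order.

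Other genes of the cell cycle were read from lists that do not share genes with the 40. Of 55 further mitosis genes, 49 were called lower and 1 higher in Gr-1hi cells of the marrow, and 49 lower and 1 higher in the spleen, with medians of -2.15 and -2.20. The largest changes in the marrow were those of the kinetochore genes Cenpm (-3.67), Cenpw (-3.50) and Cenpi (-3.17). The 1 called higher was Hjurp, the chaperone that deposits CENP-A, in the marrow (1.32 ± 0.13) and Pttg1, or securin, in the spleen (1.75 ± 0.14). Pttg1 was also the 1 of the 55 called between SP Gr-1hi and BM Gr-1hi cells, where it was higher in the spleen by 1.01 ± 0.14. None of the 55 was called between the Gr-1lo groups, where their median was -0.42.

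Nearly all of the 44 replication and G1/S genes fell in Gr-1hi cells as well. In BM Gr-1hi cells 43 were called lower with a median of -3.50, led by Orc1, Gins1 and Pole2, and in SP Gr-1hi cells all 44 with a median of -2.74. Their summed level was 335 and 331 CPM in SP Gr-1hi, 2145 and 1932 CPM in SP Gr-1lo, 254 and 341 CPM in BM Gr-1hi and 2473 and 2800 CPM in BM Gr-1lo libraries. The ratio of the mitosis sum to the replication sum was between 2.09 and 2.32 in the 4 Gr-1lo libraries, 2.81 and 3.79 in SP Gr-1hi and 4.43 and 4.69 in BM Gr-1hi libraries. The ratio was thus higher in every Gr-1hi library than in every Gr-1lo library, and the 2 spleen values lay below the 2 marrow values among Gr-1hi cells. With Kif23 left out the ratio was 2.49 and 3.38 in SP Gr-1hi and 4.06 and 4.44 in BM Gr-1hi libraries. The interaction was called positive for 12 of the 44 replication genes, with a median of 0.67, and for none of the 40 mitosis genes. Between SP Gr-1hi and BM Gr-1hi cells 1 replication gene was called higher, Pola2, a subunit of DNA polymerase alpha, by 1.02 ± 0.18, and between the Gr-1lo groups none was, with a median of -0.37.

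**Figure D5:**
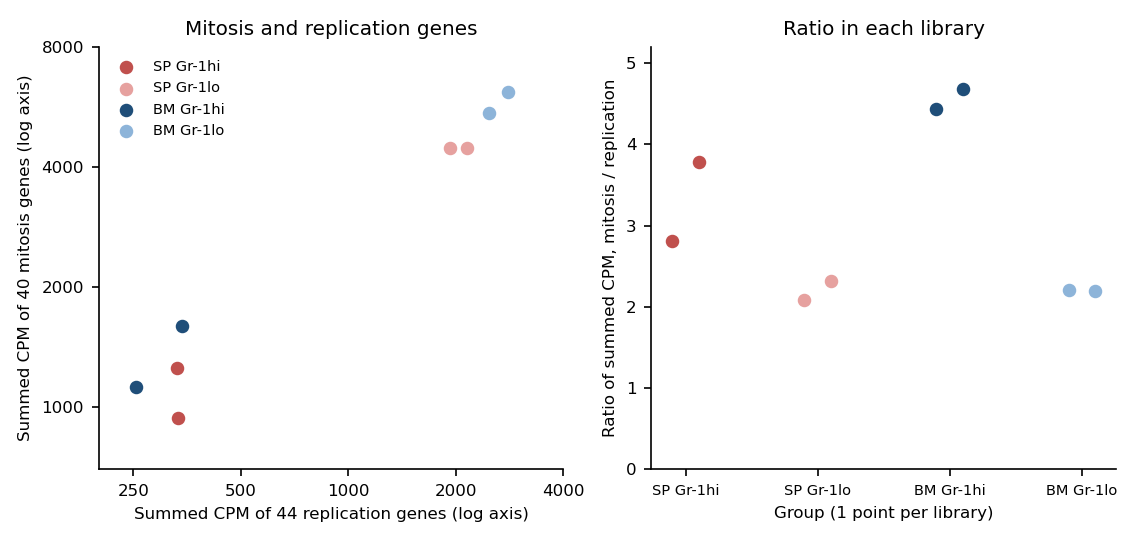
The left panel sets the summed CPM of the 40 mitosis genes against that of 44 replication genes in each library (both axes logarithmic), and the right panel gives their ratio in each library by group (y axis from 0). The Gr-1lo libraries lie together at ratios between 2.09 and 2.32, and the Gr-1hi libraries lie higher, up to 4.69 in the marrow.

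Of 20 transcription factors of cell cycle genes, 8 were called lower in Gr-1hi cells of each tissue, beside the 33.1% of all genes in the marrow and 27.4% in the spleen given above, and their median changes were -0.52 and -0.25. Mybl2, which encodes B-MYB, changed by -3.11 ± 0.16 in the marrow and -2.46 ± 0.15 in the spleen, and Foxm1 by -2.27 ± 0.20 in the spleen. In the marrow Tfdp1, a partner of E2F factors, and Lin54, the MuvB subunit that contacts the CHR, were the 2 called higher, by 1.01 ± 0.17 and 1.04 ± 0.10. Of the CDK inhibitors and G1 cyclins, 11 of 13 could be tested. Cdkn1b, Cdkn2d and Ccnd3 were called higher in BM Gr-1hi cells, by 1.86, 1.24 and 1.40, and Cdk4, Cdkn1a, Cdkn2c and Cdk6 lower, by -4.50, -3.78, -2.22 and -1.97. In SP Gr-1hi cells Cdkn1b, Cdkn2d, Ccnd1 and Ccnd2 were called higher and the same 4 lower. Between SP Gr-1hi and BM Gr-1hi cells Ccnd1 and Ccnd2, 2 of the D-type cyclins, and Cdk4, a kinase they bind, were called higher in the spleen by 2.33 ± 0.53, 1.85 ± 0.26 and 1.326 ± 0.19, while no member of the 40 was. Ccnd3, another D-type cyclin, was not called there and had 649.5 and 671 CPM in SP Gr-1hi against 909 and 953 CPM in BM Gr-1hi libraries, whereas Ccnd1 had at most 5.00 CPM in any library. The core subunits of the anaphase-promoting complex, which do not cycle, had 7 of 15 called lower in each tissue and medians of -0.64 and -0.95. Of 10 cohesin and other constitutive chromosome genes 3 were called lower in the marrow and 2 in the spleen, with medians of -0.53 and -0.54. These counts stand beside the same 33.1% and 27.4% of all genes.

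Markers of maturation moved with the subset comparisons as well. The 8 mature neutrophil genes, led by S100a8, were all called higher in Gr-1hi cells of both tissues. They summed to 38599 and 43284 CPM in SP Gr-1hi, 2914 and 2532 CPM in SP Gr-1lo, 55305 and 57056 CPM in BM Gr-1hi and 1425 and 1552 CPM in BM Gr-1lo libraries. Primary granule genes summed to 209 and 217 CPM in BM Gr-1hi against 3491 and 3437 CPM in BM Gr-1lo libraries, and to 84.8 and 155 CPM in SP Gr-1hi against 2324 and 1337 CPM in SP Gr-1lo libraries, with 6 of 8 called lower in each tissue. Monocyte genes were called lower in Gr-1hi cells for 7 of 8 in each tissue, with sums of 1050 and 1173 CPM in SP Gr-1hi and 1327 and 1754 CPM in BM Gr-1hi libraries. These Gr-1hi sums consisted mostly of Ly6c2, the gene of highest CPM, whose mean differed by less than 2-fold in both tissues. Ly6c2 had 585 and 830 CPM in SP Gr-1hi and 1196 and 1440 CPM in SP Gr-1lo libraries. In the marrow it had 1133 and 1516 CPM in BM Gr-1hi and 1645 and 2193 CPM in BM Gr-1lo libraries. None of these lists had a gene at 0 in both libraries of a group. Their part in the member levels was not tested.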

How the data were processed

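RNA was sequenced from sorted CD11b+ cells of 8 libraries, 2 for each combination of tissue and Gr-1 level, which the study describes as independent biological replicates. Per the study's methods, the authors checked reads with FastQC, trimmed them with Sickle, aligned them to GRCm38.p6 with STAR and counted reads per gene with featureCounts. The deposited table holds these raw counts, and the authors' quantile-normalized TPM values were not used. Groups were taken from the labels. Replicates were compared before averaging, and no pair agreed within counting error (chi-square over its degrees of freedom of 18.9 or more).

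Counts were analysed in R 4.3.3 with edgeR 4.0.16 (filterByExpr, TMM, robust quasi-likelihood fit over all 8 libraries with 1 term per group and 4 residual degrees of freedom) and Benjamini-Hochberg adjustment over 17650 genes. Calls needed an adjusted p up to 0.05 and a change of at least 2-fold. The SE given was derived, as the absolute log2 fold change over the square root of the F statistic of the quasi-likelihood test. RLE, upper-quartile and total-count scaling, no filter, DESeq2 1.42.0, limma 3.58.1 on log2 quantile-normalized TPM with a pseudocount of 1, left-out libraries and fits of 4 libraries were alternatives. Total-count scaling of the tests was added after seeing the data. TPM used summed exon lengths of an annotation of GRCm38.

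The members, the lists and the tests were chosen with earlier results of these data known. Values in every library are given for the member of each role with the highest mean CPM and the members with the largest and smallest changes between tissues, since no member was called between tissues, and at most 3 called genes are named from each other list. Hjurp, Tfdp1, Lin54, Cdkn1b, Cdkn2d, Ccnd3 and Cdk6 lie outside this rule and were named after their values were seen. They were taken because few genes of their list were called in that direction. Depth bears on precision through counting error, which is small for members with at least 90 counts, so that the 2 libraries per group limit the precision.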

Additional observations from a re-analysis of the deposited data

Results flagged for a closer look

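For 7 genes the difference between Gr-1hi and Gr-1lo cells was larger or smaller in the spleen than in the marrow. The criterion was an adjusted p of at most 0.05 for the interaction term of edgeR's fit. It was applied to the mitosis genes and to genes picked from other cell cycle lists because their interaction was called. Other genes named in the text, such as Hjurp and Ccnd3, were not checked, so 7 is not a count over all named genes. Among the mitosis genes Kif23 met the criterion, with an interaction of 0.80 ± 0.18 (SE) on the log2 scale and an adjusted p of 0.0208. Without BM Gr-1hi library 10 it was 0.58 with an adjusted p of 0.0797, and the adjusted p was also above 0.05 without library 7, 8 or 12. The other 6 belong to other cell cycle lists. E2f5, an E2F factor, had an interaction of 2.81 (adjusted p = 0.00959), Orc1, the large subunit of the origin recognition complex, 2.11 (adjusted p = 0.0411), Ccnd2, cyclin D2, 2.00 (adjusted p = 0.0119), Ung, uracil-DNA glycosylase, 1.97 (adjusted p = 0.0411), Cdk4 1.76 (adjusted p = 0.00452) and Pola2 1.335 (adjusted p = 0.00911). All 7 values are positive, which means a Gr-1hi level that was higher relative to Gr-1lo in the spleen than in the marrow. The other cell cycle lists held no interaction called at the 2-fold criterion in the negative direction to pick from. Of all interactions called, 79.5% were positive. Of the 7, E2f5, Orc1 and Ung had few counts in BM Gr-1hi libraries. The cause of these differences was not tested.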

How the results depend on the processing

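No paired analysis was possible because the labels do not give which libraries share a mouse. The study describes the marrow cells as autologous, so that a pairing by mouse may exist for some libraries that the tests ignored. Library 5 had Xist and no Ddx3y counts, whereas every marrow library had Ddx3y and at most 5 Xist counts. Library 5 therefore cannot share its mouse with a marrow library. Library 7 held 9898 Xist counts beside Ddx3y, which no marrow library did. Of the alternatives on the number of members called, 79 of 86 stayed within 1.5 times the reported count, and of those on the members' median change, 77 of 79 stayed within the replicate spread. The reported count was 0 in both comparisons of tissues and in the interaction, so that most alternatives there set 0 against 0. The replicate spread of Gr-1hi cells was wide enough to pass medians from -0.17 to -0.77 between tissues. A change of sign was not counted where no member was called. Between SP Gr-1hi and BM Gr-1hi, 4 members passed the adjusted p alone. At the 2-fold criterion the count moved off 0 when library 6 or 9 was left out, which left 1 library in a group. The stricter criterion kept 1 member in the marrow and 0 in the spleen. The interaction gave 1 member, Kif23, without the fold criterion and 1 under total-count scaling. Under total-count scaling the members' median was -2.99 in the marrow and -2.80 in the spleen, the change of Kif23 between the spleen subsets was -0.35, and the members' sums were 1029.5, 5764, 5654, 1158, 7103 and 7736 CPM in libraries 6, 7, 8, 10, 11 and 12. RLE scaling gave sums of 4186 and 4168 CPM in libraries 7 and 8. The members' median interaction, reported as -0.04, ran from -0.40 to 0.17 with 1 library left out, and was 0.17 under total-count scaling and 0.22 without libraries 5 and 7. Between SP Gr-1hi and BM Gr-1hi the change of Smc4 was 0.00017 under upper-quartile scaling, 0.13 under total-count scaling and 0.059 without libraries 5 and 7, and that of Cdc25c 0.066 without these 2. With 1 library left out, Cdc25c ranged from -0.99 to 0.16, Kif4 from -0.83 to 0.026, Ncapg from -0.72 to 0.12 and the median of the replication genes from -0.16 to 0.50, and that median was -0.10 on quantile-normalized TPM. With 1 library left out, its partner was taken to vary like the other groups. The cause of these shifts was not tested.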
